A study of Homo sapiens with 8 samples.

Results

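Interferon-stimulated genes were followed in MV4-11 cells, a line of human acute myeloid leukemia (AML) cells that carry MLL-AF4 and FLT3-ITD, after inhibition of CDK6, of LSD1 or of both. The 47 members were set by gene symbol, with no measured value in the rule, and all 47 were found among the 26364 gene symbols of the deposited table. The leukemia cells of every group carried the same genotype and came from 1 line. The study's methods place its AML cell lines in coculture with the human stromal line HS-5, which the sample titles do not name. They received vehicle (DMSO, the control), 5 µM tranylcypromine (TCP, an LSD1 inhibitor), 0.5 µM palbociclib (an inhibitor of CDK4 and CDK6) or both molecules (the combination). The labels give 4 days of treatment for each group, whereas the study's methods describe, for in vitro treatments, a start with the CDK6 inhibitor alone before the LSD1 inhibitor was added. RNA of 2 replicates per group was sequenced, giving 8 libraries of poly(A)-selected RNA. No source used here says that replicates were separate cultures, so p-values measure the spread between these libraries only. None of the labels names an interferon or a virus as a treatment.

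Type I interferons bind the receptor chains IFNAR1 and IFNAR2, which activate the kinases JAK1 and TYK2. A complex that holds STAT2 and IRF9 then binds the interferon-stimulated response element (ISRE) in the promoters of its targets, and the gamma-activated site (GAS) is a further element of interferon-responsive promoters. The products block viral entry, translation and replication, sense nucleic acids and feed back on the pathway. Many of these genes are transcribed at a basal level in myeloid cells without added interferon.

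Promoters were examined to describe the members. These were set as interferon-stimulated genes, whose promoters often hold this element, so a high share of it does not bear on the treatments. RefSeq promoters (GRCh38.p14, 250 bases before to 50 bases after a start site) were matched to 35 of the 47 members, with 47 promoter entries because some genes have several starts. No promoter was matched for DHX58, IRF7, USP18, OAS2, OASL, IFIT2, IFITM2, MX2, GBP2, GBP5, PML and TRIM22. The ISRE core GAAANNGAA, searched on both strands, was found in 29 of 47 promoters (61.7%, 95% Wilson interval 47.4 to 74.2%), against 8.11% of all 35116 promoters. The GAS letters TTCNNNGAA, which read the same on both strands, were found in 12 of 47 promoters (25.5%, 95% Wilson interval 15.3 to 39.5%), against 7.66% of all promoters. The intervals take promoters as independent draws, and start sites of the same gene share sequence. A match describes letters in this window and no binding. 7 promoters are printed as examples, among them members that fell with palbociclib and members that rose with the combination. All but that of IRF1 hold the ISRE core. They read 5′ to 3′ on the strand of the gene, and capitals mark matches to the ISRE core or the GAS letters. IFIT1, IFIT3 and HERC5 fell with palbociclib, ISG15 is the protein modifier that heads its class, IRF1 fell and holds GAS letters with no ISRE core, and IFITM3 and BST2 rose with the combination.
IFIT1 (chr10:89392373-89392672, + strand): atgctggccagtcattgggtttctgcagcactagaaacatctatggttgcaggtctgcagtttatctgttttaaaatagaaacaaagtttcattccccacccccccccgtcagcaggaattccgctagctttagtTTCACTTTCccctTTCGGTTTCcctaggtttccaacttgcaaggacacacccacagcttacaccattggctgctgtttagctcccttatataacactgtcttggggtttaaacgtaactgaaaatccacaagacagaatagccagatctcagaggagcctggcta
IFIT3 (chr10:89332279-89332578, + strand): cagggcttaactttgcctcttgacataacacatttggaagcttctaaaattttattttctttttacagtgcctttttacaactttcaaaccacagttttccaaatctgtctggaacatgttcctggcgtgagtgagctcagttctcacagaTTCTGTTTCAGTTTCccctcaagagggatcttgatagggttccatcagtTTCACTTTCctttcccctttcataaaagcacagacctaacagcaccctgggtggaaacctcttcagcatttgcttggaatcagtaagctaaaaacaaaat
HERC5 (chr4:88456869-88457168, + strand): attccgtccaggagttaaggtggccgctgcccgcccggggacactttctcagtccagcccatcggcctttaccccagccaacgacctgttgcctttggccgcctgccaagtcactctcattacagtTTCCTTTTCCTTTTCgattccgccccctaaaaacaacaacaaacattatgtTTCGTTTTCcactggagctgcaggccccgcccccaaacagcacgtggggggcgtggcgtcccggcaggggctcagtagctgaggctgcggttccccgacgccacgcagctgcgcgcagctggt
ISG15 (chr1:1013247-1013546, + strand): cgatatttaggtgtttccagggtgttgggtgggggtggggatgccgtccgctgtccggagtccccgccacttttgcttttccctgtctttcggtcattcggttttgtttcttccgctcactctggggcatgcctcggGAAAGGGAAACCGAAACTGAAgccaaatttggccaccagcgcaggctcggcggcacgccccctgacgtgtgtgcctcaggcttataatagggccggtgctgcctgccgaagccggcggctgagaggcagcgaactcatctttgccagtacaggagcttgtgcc
IRF1 (chr5:132490724-132491023, - strand): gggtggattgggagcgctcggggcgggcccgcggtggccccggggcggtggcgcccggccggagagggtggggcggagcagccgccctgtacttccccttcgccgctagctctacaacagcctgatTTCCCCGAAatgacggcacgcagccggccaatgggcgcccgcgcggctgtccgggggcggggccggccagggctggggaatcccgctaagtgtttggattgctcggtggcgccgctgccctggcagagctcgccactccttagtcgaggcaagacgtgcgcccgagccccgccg
IFITM3 (chr11:320811-321110, - strand): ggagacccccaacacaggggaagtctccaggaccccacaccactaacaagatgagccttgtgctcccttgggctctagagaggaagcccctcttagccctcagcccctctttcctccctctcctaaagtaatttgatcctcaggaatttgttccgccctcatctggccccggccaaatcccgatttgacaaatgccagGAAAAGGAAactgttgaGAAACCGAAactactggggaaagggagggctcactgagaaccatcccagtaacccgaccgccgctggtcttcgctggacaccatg
BST2 (chr19:17405581-17405880, - strand): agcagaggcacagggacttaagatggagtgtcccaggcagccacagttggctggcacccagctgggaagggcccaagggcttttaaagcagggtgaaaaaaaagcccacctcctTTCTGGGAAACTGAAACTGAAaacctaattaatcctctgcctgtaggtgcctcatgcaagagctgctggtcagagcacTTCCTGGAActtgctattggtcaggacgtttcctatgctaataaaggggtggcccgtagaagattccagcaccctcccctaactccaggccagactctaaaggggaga
The cores in IFIT1, IFIT3 and HERC5 lie on the opposite strand and so appear as TTCNNTTTC. BST2 holds 2 overlapping ISRE cores that overlap GAS letters, and ISG15 holds 3 overlapping cores. The 24 members with an ISRE core included IFIT1, IFIT3 and HERC5, which fell with palbociclib, and BST2 and IFITM3, which rose with the combination, so the core was found among members that fell and members that rose. With palbociclib against control, the median log2 fold change was -1.23 for the 24 members with the core and -0.96 for the 11 matched members without it, and with the combination it was -0.72 and -0.79. For the combination against palbociclib the medians were 0.54 and 0.10, and the ranges of both sets overlapped in each comparison (0.01 to 1.28 with the core and -0.003 to 1.006 without it, in the last).

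Expression was given as TPM, which is scaled for gene length and to a common sum in each library, so levels can be set beside each other between genes while read depth is unknown. Between 13320 and 13640 genes reached 1 TPM per library, and the 14151 genes that reached 1 TPM in 2 or more libraries were tested with limma on log2(TPM + 1). All 47 members passed this filter, so no member was left out by it. Differentially expressed genes (DEG) were those with a log2 fold change of 1 or more in either direction and an adjusted p (Benjamini-Hochberg) under 0.01, and an adjusted p below 0.05 without a fold minimum is given as a wider call. The median of all tested genes moved by -0.16 (log2) with palbociclib and by -0.22 with the combination, and the medians of members below are to be read against these shifts. The myeloid markers CD33 and SPI1 were present in every library and CD34 was at or near 0 in every library. They belong to a list of 8 myeloid identity genes, of which 7 were tested. At an adjusted p below 0.05, 4 of the 7 rose and 1 fell with palbociclib, against 14.8% and 30.2% of all tested genes. With the combination 4 rose and 1 fell, against 15.9% and 37.6%. A list of 10 monocyte maturation genes summed to 372 and 864 TPM in control replicates 1 and 2 and 894 and 1888 TPM with TCP. The sums were 19322 and 21502 TPM with palbociclib and 39820 and 39031 TPM with the combination. With the combination 10 of 10 were DEG higher, against 5.87% of all tested genes. 8 proliferation genes summed to 1092 and 1275 TPM in controls and 369 and 403 TPM with the combination. In bulk RNA, fewer cells that express a gene and less RNA per cell cannot be told apart. Transcripts of 12 stromal markers summed to 13.1 to 37.7 TPM in 7 libraries and to 109.8 TPM in palbociclib replicate 2, where 8 of 12 reached 1 TPM. In the combination libraries 5 and 7 of 12 reached 1 TPM, and all 7 stromal markers tested were higher than control in both same-numbered pairs with palbociclib and with the combination (1 of 7 at an adjusted p below 0.05 in each). Their part in the results was not tested.

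The members differed more between replicates than most genes did, above all in the control and TCP groups, and this sets the precision of every comparison that follows. Their median level was 58.6 and 29.0 TPM in control replicates 1 and 2, 45.0 and 13.8 TPM with TCP, 13.7 and 18.4 TPM with palbociclib and 19.7 and 22.2 TPM with the combination. The median absolute log2 difference between the replicates was 0.91 over members and 0.13 over all tested genes in the control group, 1.44 and 0.20 with TCP, 0.37 and 0.13 with palbociclib and 0.19 and 0.12 with the combination. A difference of 2-fold or more was held by 4 members with palbociclib (2.36% of all tested genes) and by none with the combination (1.36%). By level, replicate 1 was above replicate 2 in the control and TCP groups, and slightly below it in the groups with palbociclib. In the control group 46 of 47 members were higher in replicate 1, and 22 were at least 2-fold higher on the scale of log2(TPM + 1), against 1.05% of all tested genes. In the TCP group all 47 were higher in replicate 1, and 36 were at least 2-fold higher, against 2.02% of all tested genes. With palbociclib 6 of 47 were higher in replicate 1, and with the combination 16 of 47. The 4 IFIT genes summed to 424 and 166 TPM in controls, 275 and 41.4 TPM with TCP, 20.6 and 24.6 TPM with palbociclib and 41.6 and 40.0 TPM with the combination. The IFIT sum of TCP replicate 2 therefore lay close to the combination libraries, and that of TCP replicate 1 lay between the controls. Across the 47 members, deviations of replicate 1 from its group mean correlated at 0.831 between control and TCP and at 0.865 between palbociclib and combination. Between the groups without and with palbociclib these correlations were -0.508 to -0.172. They are descriptions over 47 genes of the same 8 libraries, and genes are not independent. The labels name no batch, and what the replicate numbers share was not tested.

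**Figure D1:**
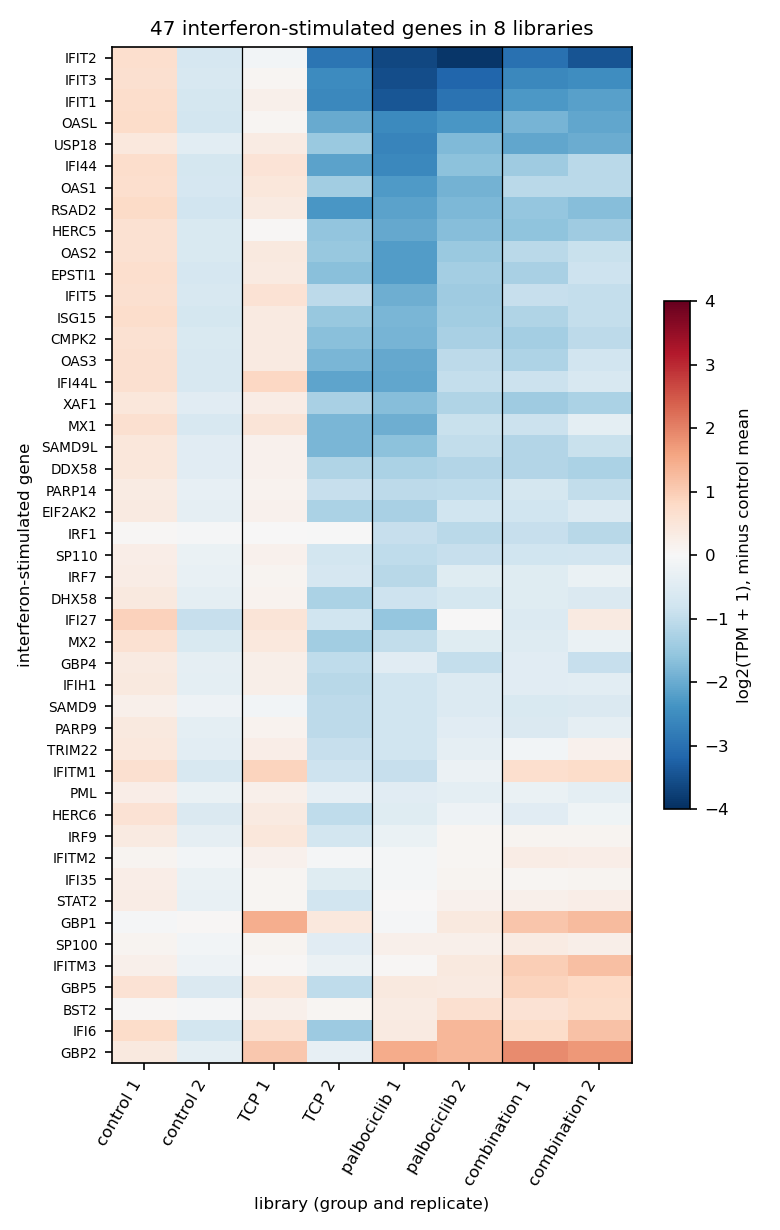
Heat map of the 47 interferon-stimulated genes (rows, ordered by their log2 fold change with palbociclib) in the 8 libraries (columns). Color is log2(TPM + 1) minus the mean of the 2 control libraries, and control replicate 1 and TCP replicate 1 are the reddest columns while TCP replicate 2 resembles the palbociclib libraries for many rows.

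**Figure D2:**
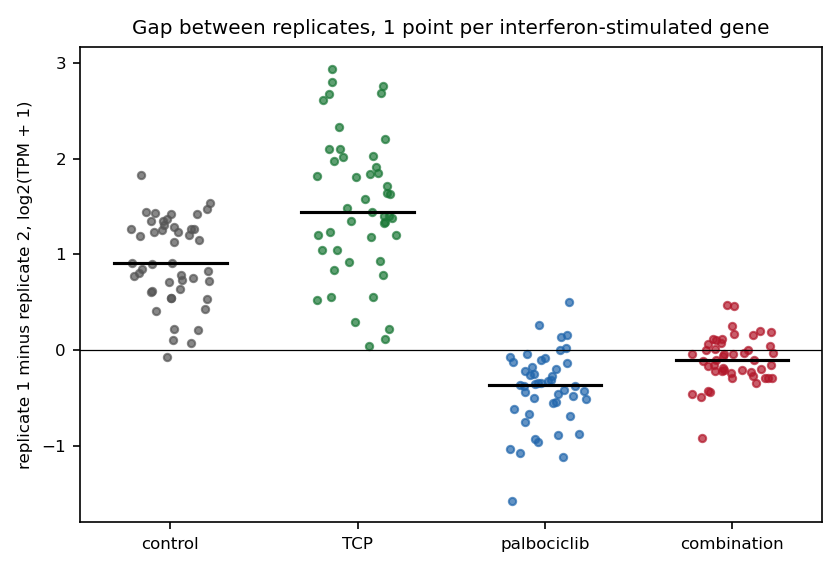
Gap between replicate 1 and replicate 2 in log2(TPM + 1), 1 point per member with the median as a bar (points are spread sideways for legibility). The median gap was 0.91 in control, 1.44 with TCP, -0.36 with palbociclib and -0.10 with the combination.

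With palbociclib against control, which asks what inhibition of CDK4 and CDK6 alone does to the interferon-stimulated genes, most members were lower. 37 of 47 had a log2 fold change below 0, beside 8793 of the 14151 tested genes. The median of the members was -0.96 against -0.16 for all tested genes. Between the replicates 1 alone the median was -1.56, against -0.14 for all tested genes, and 44 members were below 0. Between the replicates 2 it was -0.32, against -0.16, and 31 members were below 0. Without control replicate 1 the median was -0.68, against -0.15, so its size rests in part on that library. A DEG call was reached by 1 member, IRF1, which was lower, against 9.1% of all tested genes called in either direction. At an adjusted p below 0.05, 10 members fell (21.3%) against 30.2% of all tested genes, and 2 members rose (4.26%) against 14.8% of all tested genes. How many members passed depends on which libraries set the spread: 21 fell, against 29.8% of all tested genes, in a fit of only the groups compared. In 31 members both palbociclib libraries were below both control libraries, against 49.7% of all tested genes, and in BST2, GBP2 and SP100 both were above, against 26.5%. With the replicate block, 5 members were DEG (IFIT2, IFIT3, OASL, IRF1 and GBP2) and 16 fell at an adjusted p below 0.05, against 9.79% and 37.1% of all tested genes. That block takes 1 replicate effect as common to all groups. The gaps between replicates of most members ran in opposite directions without and with palbociclib, so it does not describe them. Without palbociclib replicate 2, the library with the highest sum of stromal markers, the median was -1.06, against -0.14 for all tested genes. The gap between the TCP libraries widens the spread that all groups share in the main fit.

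The combination against control gave a like picture with somewhat smaller falls and more gains. The control libraries are the same as in the palbociclib comparison, so the 2 comparisons are not independent. 34 members were below 0 and 13 above, beside 9180 and 4945 of the 14151 tested genes. The median of the 47 members was -0.68 against -0.22 for all tested genes. Without control replicate 1 it was -0.30, against -0.21 for all tested genes, and between the replicates 2 alone it was -0.15, against -0.22. DEG were IRF1, which was lower, and IFITM3, which was higher, which is 2 of 47 members against 13.7% of all tested genes. At an adjusted p below 0.05, 5 members fell against 37.6% of all tested genes, and 4 members rose against 15.9%. The members that rose include GBP1, which passed the filter only through groups where it was high. Both combination libraries lay below both controls in 27 members, against 54.2% of all tested genes, and above them in 9 members, against 26%. These 9 were IFI6, IFITM1, IFITM2, IFITM3, BST2, GBP1, GBP2, GBP5 and SP100. With the replicate block, under the limit given above, 4 members were DEG (IFIT2, IFITM3, IRF1 and GBP2). At an adjusted p below 0.05, 12 fell, and the shares of all tested genes were 14.4% and 42.9%. Without combination replicate 1 the median of the members was -0.59, against -0.23 for all tested genes. Without combination replicate 2 it was -0.72, against -0.21.

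**Figure D3:**
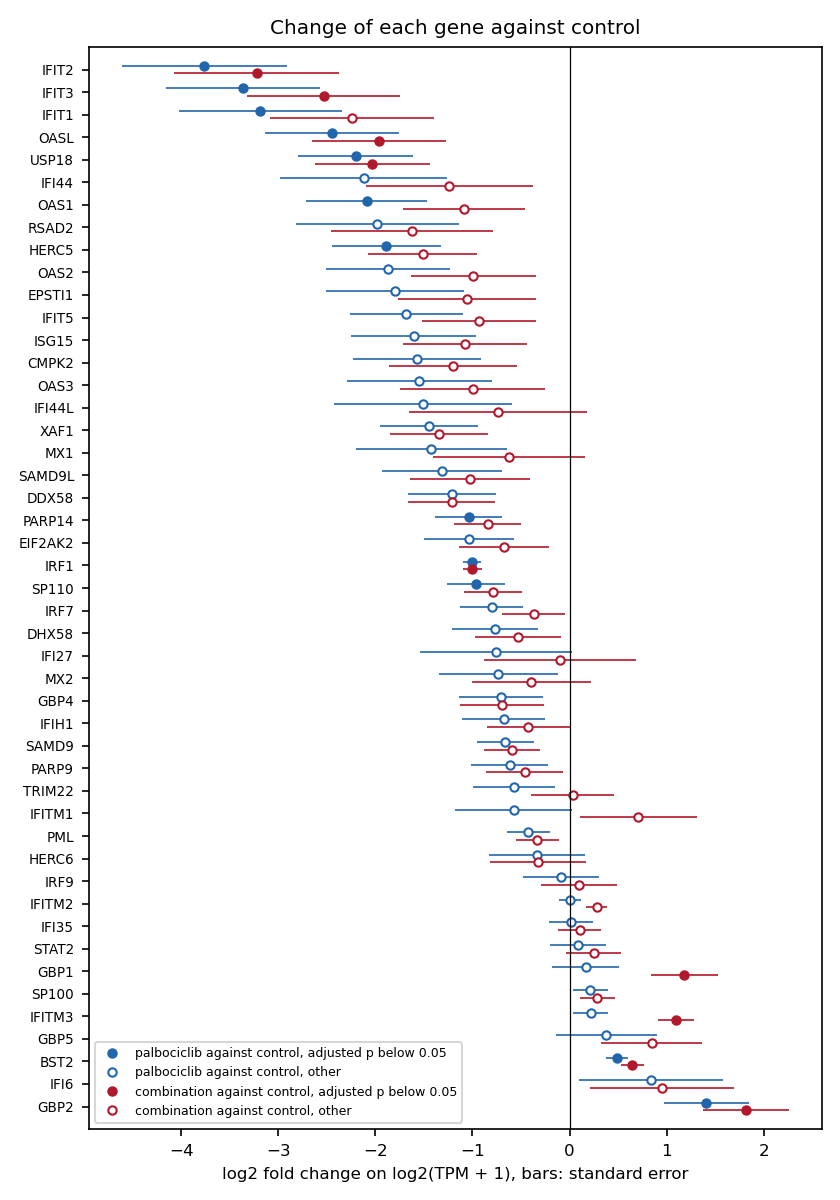
Log2 fold change of each member against control on log2(TPM + 1), with palbociclib in blue and the combination in red. Bars are standard errors and filled points had an adjusted p below 0.05; IFIT2, IFIT3 and IFIT1 had the lowest values with wide bars, IRF1 lay near -1 with a narrow bar, and GBP2 had the highest value in both comparisons.

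IFIT1, IFIT2 and IFIT3, whose proteins bind foreign RNA and block its translation, had the lowest values in both comparisons. IFIT1, IFIT2, IFIT3 and IFIT5 lie in a cluster on chromosome 10, with IFIT2 at chr10:91043451-91069028 and IFIT5 at chr10:91174325-91181362 (GRCh37, plus strand). IFIT2 was at 168 and 65.4 TPM in control replicates 1 and 2, 97.1 and 13.1 TPM with TCP, 7.57 and 6.12 TPM with palbociclib and 12.3 and 8.66 TPM with the combination. All 4 libraries with palbociclib were below all 4 libraries without it, although TCP replicate 2 was close to combination replicate 1. Its log2 fold change was -3.76 (SE 0.85, adjusted p = 0.0108) with palbociclib and -3.22 (SE 0.85, adjusted p = 0.0164) with the combination. IFIT3 was at 179.6 and 72.9 TPM in control replicates 1 and 2, 122 and 19.1 TPM with TCP, 8.84 and 11.8 TPM with palbociclib and 18.2 and 19.8 TPM with the combination. TCP replicate 2 overlapped the combination libraries. The log2 fold change of IFIT3 was -3.37 (SE 0.79, adjusted p = 0.0126) with palbociclib and -2.53 (SE 0.79, adjusted p = 0.031) with the combination. IFIT1 was at 61.6 and 22.3 TPM in control replicates 1 and 2, 42.5 and 5.45 TPM with TCP, 2.59 and 3.92 TPM with palbociclib and 6.81 and 7.39 TPM with the combination, and the groups with palbociclib again lay below both controls. IFIT1 fell with palbociclib, by 3.18 on the log2 scale (adjusted p = 0.0203), and had -2.24 (SE 0.84, adjusted p = 0.0595) with the combination. IFIT5, the least expressed of the family, had -1.68 (SE 0.58, adjusted p = 0.0518) with palbociclib and did not pass the test in any comparison.

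Among the oligoadenylate synthetases, which make the activator of RNase L, and the double-stranded RNA kinase PKR, the wider call was reached by OASL and OAS1. OASL, a member of this family that lacks synthetase activity, was at 66.2 and 23.8 TPM in control replicates 1 and 2, 42.5 and 9.14 TPM with TCP, 5.97 and 7.08 TPM with palbociclib and 10.2 and 8.74 TPM with the combination. Its palbociclib and combination libraries lay below both controls, with TCP replicate 2 between the combination libraries. OASL had a log2 fold change of -2.44 (SE 0.69, adjusted p = 0.0255) with palbociclib and -1.97 (SE 0.69, adjusted p = 0.047) with the combination. OAS1 fell with palbociclib, with -2.09 (SE 0.63, adjusted p = 0.0314), and had -1.09 (SE 0.63, adjusted p = 0.185) with the combination. OAS2 and OAS3 had -1.87 and -1.55 with palbociclib (adjusted p = 0.0502 and 0.132). EIF2AK2, which encodes PKR, had -1.04 (SE 0.46, adjusted p = 0.108).

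The ISG15 system couples the ubiquitin-like protein ISG15 to other proteins, with HERC5 as its main ligase and USP18 as its protease and as a brake on the type I interferon receptor. ISG15 was at 189 and 69.7 TPM in control replicates 1 and 2, 146 and 39.8 TPM with TCP, 31.7 and 43.3 TPM with palbociclib and 49.5 and 58.7 TPM with the combination. Both groups with palbociclib lay below both controls, but TCP replicate 2 was within their range, and ISG15 did not pass the test (-1.61 (SE 0.64, adjusted p = 0.0802) with palbociclib). USP18 was at 12.8 and 6.77 TPM in control replicates 1 and 2, 12.01 and 2.73 TPM with TCP, 0.657 and 2.05 TPM with palbociclib and 1.44 and 1.62 TPM with the combination. All 4 libraries with palbociclib were below the other 4, and USP18 had -2.20 (SE 0.59, adjusted p = 0.0216) with palbociclib and -2.03 (SE 0.59, adjusted p = 0.0246) with the combination. HERC5 fell with palbociclib, with -1.89 (SE 0.56, adjusted p = 0.0305), and had -1.51 (SE 0.56, adjusted p = 0.0558) with the combination. HERC6 had -0.34 with palbociclib (adjusted p = 0.605).

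IRF1, a transcription factor that activates interferon genes, had the smallest standard error of the members that fell. It lies at chr5:131776132-131844411 (GRCh37, minus strand). It was at 58.6 and 55.4 TPM in control replicates 1 and 2, 58.1 and 56.2 TPM with TCP, 29.4 and 26.6 TPM with palbociclib and 29.9 and 26.2 TPM with the combination. The 4 libraries with palbociclib were all lower than the 4 without, and the spread within each group was small. The log2 fold change was -1.003 (SE 0.10, adjusted p = 0.000397) with palbociclib, -1.002 (SE 0.10, adjusted p = 0.000237) with the combination and -1.005 (SE 0.10, adjusted p = 0.000263) for the combination against TCP. These values sit at the fold minimum of the DEG call. With quantile normalization they were -0.86, -0.80 and -0.83, and with median-ratio scaling -0.84, -0.78 and -0.82, so under both scalings the fall kept its direction and IRF1 was not a DEG. Exonic bases of IRF1 overlap those of other genes by 22.9% in the annotation used here, and the strand setting of the counting is not given in the sources used here.

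The other regulators did not pass the test. STAT2, a component of the ISRE-binding complex, was at 117 and 76.5 TPM in control replicates 1 and 2, 100.05 and 55.6 TPM with TCP, 96.0 and 106 TPM with palbociclib and 110.1 and 115 TPM with the combination, with palbociclib and combination libraries within the range of the controls. IRF9, its DNA-binding partner, was at 80.9 and 49.0 TPM in control replicates 1 and 2, 87.5 and 37.5 TPM with TCP, 52.2 and 67.1 TPM with palbociclib and 67.7 and 67.4 TPM with the combination, with every treated group within or across the range of the controls. IRF7, the factor that drives interferon alpha transcription, was at 107 and 69.3 TPM in control replicates 1 and 2, 92.6 and 53.3 TPM with TCP, 39.5 and 60.7 TPM with palbociclib and 61.9 and 71.6 TPM with the combination. IRF7 was lower in both palbociclib libraries than in both controls, and its log2 fold change was -0.80 (SE 0.32, adjusted p = 0.0829). Thus IRF1 alone of the 4 listed factors passed the test.

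The cytosolic RNA sensors did not pass the test in any comparison. DDX58, which encodes RIG-I, was at 33.9 and 17.6 TPM in control replicates 1 and 2, 27.7 and 10.1 TPM with TCP, 9.63 and 10.4 TPM with palbociclib and 10.3 and 9.70 TPM with the combination. IFIH1, which encodes MDA5, was at 32.9 and 18.4 TPM in control replicates 1 and 2, 29.0 and 10.9 TPM with TCP, 13.7 and 16.5 TPM with palbociclib and 17.9 and 18.3 TPM with the combination. DHX58, which encodes the regulator LGP2, was at 26.3 and 14.8 TPM in control replicates 1 and 2, 21.7 and 7.58 TPM with TCP, 10.7 and 11.8 TPM with palbociclib and 14.0 and 12.8 TPM with the combination. For each of the 3, both palbociclib and both combination libraries lay below both controls, while TCP replicate 2 was within or below the range of the libraries with palbociclib. DDX58 had -1.21 (SE 0.45, adjusted p = 0.0647) with palbociclib and -1.21 (SE 0.45, adjusted p = 0.0563) with the combination, which were the lowest of the sensors.

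Among the 4 membrane proteins that restrict virus entry or release, BST2 and IFITM3 rose and the other two did not pass the test. BST2, or tetherin, which holds budding virions at the cell surface, was at 244 and 226 TPM in control replicates 1 and 2, 268 and 246 TPM with TCP, 296 and 367 TPM with palbociclib and 348 and 388 TPM with the combination. Each palbociclib or combination library exceeded each library without palbociclib. BST2 rose by 0.49 (SE 0.12, adjusted p = 0.0137) on the log2 scale with palbociclib and by 0.64 (SE 0.12, adjusted p = 0.00354) with the combination. IFITM3, which hinders fusion of viruses in endosomes, was at 24.0 and 17.9 TPM in control replicates 1 and 2, 21.5 and 17.3 TPM with TCP, 21.6 and 27.3 TPM with palbociclib and 42.3 and 48.8 TPM with the combination. Both combination libraries stood above all others. IFITM3 had 0.22 (SE 0.18, adjusted p = 0.372) with palbociclib, where it did not pass the test, and rose by 1.09 (SE 0.18, adjusted p = 0.0025) with the combination and by 1.20 (SE 0.18, adjusted p = 0.00191) against TCP. IFITM1 was at 284 and 117 TPM in control replicates 1 and 2, 341 and 103 TPM with TCP, 96.0 and 155 TPM with palbociclib and 294 and 303 TPM with the combination, with wide gaps between the replicates of the first 3 groups, and was not called. IFITM2, the most abundant member, was at 853 and 731 TPM in control replicates 1 and 2, 889.7 and 763 TPM with TCP, 743 and 839.7 TPM with palbociclib and 962 and 952 TPM with the combination and was not called either. IFITM1, IFITM2 and IFITM3 are neighbours on chromosome 11 with closely related sequences, so reads may have been split among them in the counting, and their values are uncertain to that extent.

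Of the interferon-induced GTPases, GBP2 rose and the MX genes did not pass the test. GBP2, a guanylate-binding protein that attacks vacuoles of intracellular pathogens, was at 11.6 and 6.32 TPM in control replicates 1 and 2, 19.1 and 6.58 TPM with TCP, 25.9 and 23.2 TPM with palbociclib and 34.7 and 30.9 TPM with the combination. The palbociclib and combination libraries were all above the libraries without palbociclib. GBP2 rose by 1.41 (SE 0.44, adjusted p = 0.0369) on the log2 scale with palbociclib and by 1.82 (SE 0.44, adjusted p = 0.012) with the combination. GBP1 was the least abundant member, at 0.279 and 0.345 TPM in control replicates 1 and 2, 2.60 and 0.743 TPM with TCP, 0.270 and 0.701 TPM with palbociclib and 1.82 and 2.13 TPM with the combination. GBP1 reached 1 TPM only in TCP replicate 1 and both combination libraries, so it passed the filter only through groups where it was high. Its log2 fold change with the combination was 1.18 (SE 0.34, adjusted p = 0.0246), and its TCP libraries were also above both controls. Because of the filter and its values near 0, its p-values are not taken as support for a rise. GBP5 was at 4.83 and 1.63 TPM in control replicates 1 and 2, 4.39 and 0.926 TPM with TCP, 4.14 and 4.05 TPM with palbociclib and 6.20 and 5.87 TPM with the combination, with TCP replicate 2 the lowest and the combination libraries the highest, and GBP5 was not called. GBP4 had -0.71 with palbociclib and -0.70 with the combination, neither of which passed. MX1, which traps viral nucleocapsids, had -1.42 (SE 0.78, adjusted p = 0.176) with palbociclib, and MX2 had -0.73 (SE 0.61, adjusted p = 0.359). The GBP genes are related in sequence and may share reads.

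IFI6, a small mitochondrial and endoplasmic reticulum protein that opposes flavivirus replication, was at 377 and 135 TPM in control replicates 1 and 2, 353 and 81.3 TPM with TCP, 289.7 and 563 TPM with palbociclib and 377 and 508 TPM with the combination. It carries 3 ISRE cores, and its highest libraries were palbociclib replicate 2 and combination replicate 2. The log2 fold change was 0.84 (SE 0.74, adjusted p = 0.391) with palbociclib and 0.95 (SE 0.74, adjusted p = 0.316) with the combination, and neither passed the test. IFI6 is 1 of 5 members that share at least 20% of their exonic bases with other genes in the annotation used here (23.1%), with IFITM1, IRF1, IRF9 and XAF1. The other 6 members of this class, IFI27, IFI35, IFI44, IFI44L, EPSTI1 and XAF1, ranged from -2.12 (IFI44) to 0.01 (IFI35) with palbociclib, and none passed. RSAD2, or viperin, which makes a chain-terminating nucleotide, and its neighbour CMPK2 had -1.98 and -1.57 with palbociclib (adjusted p = 0.0938 and 0.0921).

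Of the SAMD9 and PARP proteins, PARP14 fell with palbociclib, with -1.04 (SE 0.34, adjusted p = 0.0434), and SAMD9, SAMD9L and PARP9 did not pass. Of the nuclear body proteins, SP110 fell with palbociclib, with -0.96 (SE 0.30, adjusted p = 0.0358), and all 4 of its libraries with palbociclib were below the other 4. SP100, its relative and a component of PML bodies, was at 17.8 and 15.3 TPM in control replicates 1 and 2, 17.7 and 11.8 TPM with TCP, 19.3 and 19.3 TPM with palbociclib and 21.2 and 19.5 TPM with the combination. All 4 libraries with palbociclib were above the other 4, by little, and the log2 fold change of 0.21 (SE 0.18, adjusted p = 0.367) with palbociclib did not pass. PML and TRIM22 had -0.43 and -0.58 with palbociclib, and neither was called. IFIT2, IRF1, USP18 and SP110 were the 4 members with all palbociclib-treated libraries below all others, and BST2, GBP2 and SP100 the 3 above. These are 8.51% and 6.38% of the members, while among all tested genes 36.5% and 17.5% separated so.

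**Figure D4:**
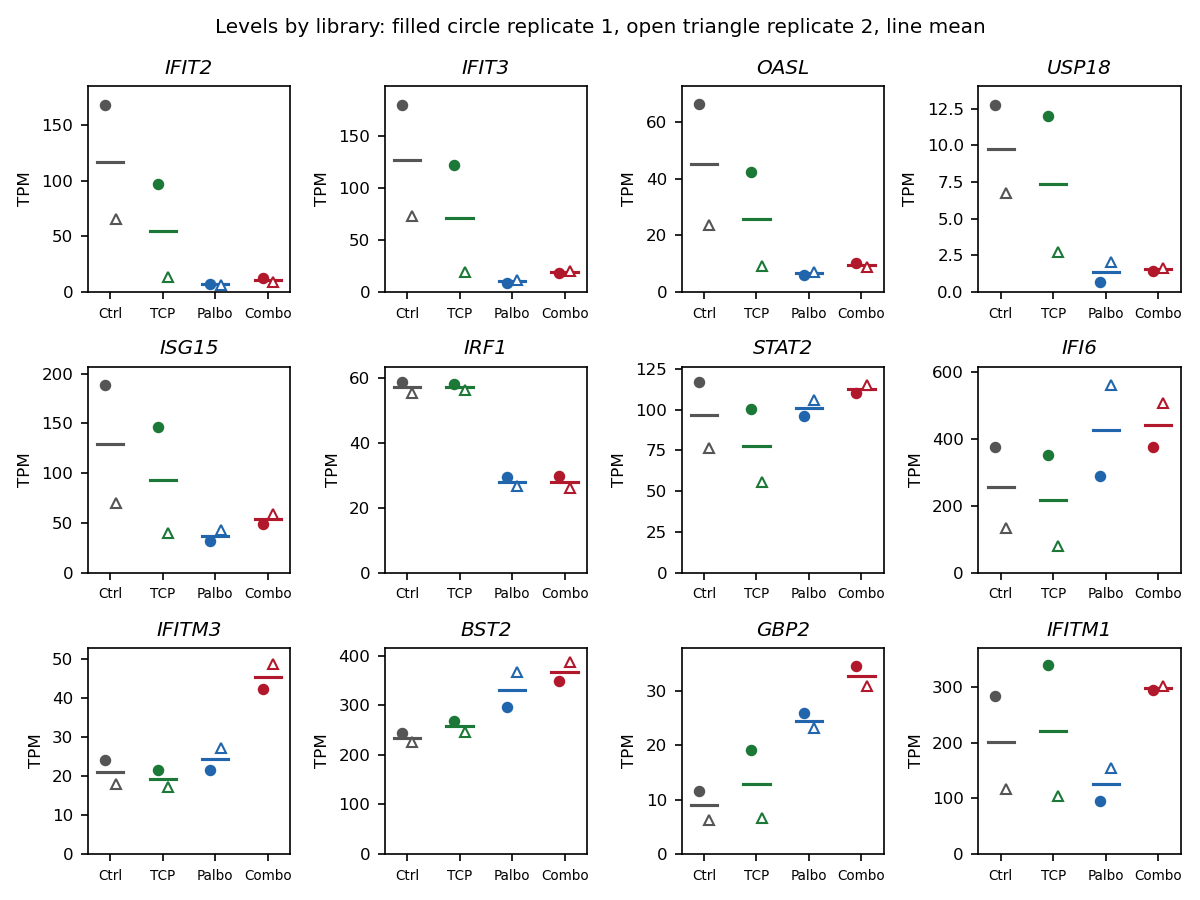
TPM of 12 members in each library, with control (Ctrl), TCP, palbociclib (Palbo) and combination (Combo) on the horizontal axis and axes that start at 0. Filled circles are replicate 1, open triangles replicate 2 and lines the group means: IFIT2, IFIT3, OASL, USP18 and ISG15 spread widely without palbociclib and are low with it, IRF1 steps down with little spread, and BST2, GBP2 and IFITM3 are highest with the combination.

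TCP against control, which asks what LSD1 inhibition alone does, gave no member called. No DEG was found by limma among the 47, against 0.0565% of all tested genes, and 1 member, GBP1, had an unadjusted p below 0.05 (0.0304, adjusted p = 0.483). The median was -0.46 against -0.04 for all tested genes. 41 members were below 0, beside 8692 of the 14151 tested genes. No member had both TCP libraries below both controls, against 22.3% of all tested genes, since TCP replicate 1 was above control replicate 2 throughout. Among same-numbered libraries, the median difference was -0.18 for replicate 1 and -0.72 for replicate 2. Without TCP replicate 2 the median turned to 0.23, and without TCP replicate 1 it was -1.11. Without control replicate 1 it was -0.0065, with 23 members above 0 and 24 below. The direction of the median therefore rests on which TCP library and which control library are used. The lowest values were those of IFIT2, -1.51 (SE 0.85, adjusted p = 0.688), IFIT3, -1.22 (SE 0.79, adjusted p = 0.733), and IFIT1, -1.19 (SE 0.84, adjusted p = 0.763).

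The combination against palbociclib, which asks what TCP adds to CDK6 inhibition, gave small positive differences in nearly all members, none of which passed the test. 46 of 47 members had a log2 fold change above 0, beside 4877 of the 14151 tested genes. The median of the members was 0.36 against -0.07 for all tested genes. In 29 members both combination libraries were above both palbociclib libraries, against 16.6% of all tested genes, and in none were both below. No member was called, neither as a DEG (0.502% of all tested genes) nor at an adjusted p below 0.05 (1.44% of all tested genes lower and 2.05% higher). 3 members had an unadjusted p below 0.05, namely IFITM3, GBP1 and IFITM2, and IFITM3 rose at an adjusted p below 0.05 with the replicate block, with quantile normalization, with median-ratio scaling and with a filter on a mean of 5 TPM. IFITM3 came nearest, with 0.88 (SE 0.18, adjusted p = 0.0545). The largest value was that of IFITM1, 1.28 (SE 0.60, adjusted p = 0.335), and OAS1 had 1.01 (SE 0.63, adjusted p = 0.465). The median was 0.48 between the replicates 1 and 0.23 between the replicates 2, and 0.58 without palbociclib replicate 2. Without palbociclib replicate 1 it was 0.17, and 37 members rather than 46 were above 0.

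The combination against TCP, which asks what CDK6 inhibition adds to TCP, depended on the TCP library. The median of the members was -0.14 against -0.18 for all tested genes, and it was 0.01 with quantile normalization and 0.04 with median-ratio scaling, so its sign is not settled. Between the replicates 1 the median was -0.94 and between the replicates 2 it was 0.65. IRF1 was a DEG lower and IFITM3 a DEG higher, against 12.2% of all tested genes. At an adjusted p below 0.05, 1 member fell (IRF1, against 33.8% of all tested genes) and 3 rose (IFITM3, BST2 and GBP2, against 16.5%). BST2 had 0.51 (SE 0.12, adjusted p = 0.01) and GBP2 had 1.45 (SE 0.44, adjusted p = 0.0302). Without TCP replicate 2 the median of the members was -0.93, against -0.22 for all tested genes. Without TCP replicate 1 it was 0.58, against -0.14. With the replicate block 3 members were DEG, against 12.8% of all tested genes.

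The interaction asks whether TCP acts otherwise with palbociclib than without it. 46 of 47 members had an interaction above 0, beside 6270 of the 14151 tested genes. The median of the members was 0.80 against -0.03 for all tested genes. None was called by limma, nor was any of the tested genes (0%), and 1 member, IFITM3, had an unadjusted p below 0.05 (adjusted p = 0.525). The median was 0.08 without TCP replicate 2 and 1.51 without TCP replicate 1. In 31 of 47 members TCP libraries were below their same-numbered control and combination libraries above their same-numbered palbociclib library in both pairs, against 5.23% of all tested genes. These 31 included all 4 IFIT genes, the OAS genes, ISG15, MX1, MX2, RSAD2 and STAT2, and did not include IRF1, IRF9, USP18, IFI6, DDX58, BST2, GBP1 or GBP2.

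The genes upstream of the members were read from lists fixed by function. Of 21 interferon ligand genes in the table, IFNB1, which encodes interferon beta, was the only 1 to pass the filter. IFNB1 was listed at 3.76 and 2.16 TPM in control, 1.98 and 0.558 TPM with TCP, 0 and 0 TPM with palbociclib and 0 and 0.127 TPM with the combination. The control and TCP libraries were all above the libraries with palbociclib. IFNB1 was a DEG lower with palbociclib (adjusted p = 0.00399) and with the combination (adjusted p = 0.00366) in limma. It passed the filter only through both control libraries and TCP replicate 1, which favors a lower value with palbociclib, and all its values were near the floor. These calls are therefore not taken as support for a fall. No fold is given because it was listed at 0 in both palbociclib libraries and in combination replicate 1. IFNB1 in control replicate 2 and TCP replicate 1 was too close and too near the floor to be ordered. Whether IFNB1 followed the members across libraries was not tested.

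Transcripts of the interferon receptors moved opposite to those of the members that fell. IFNAR1 was at 37.8 and 39.7 TPM in control replicates 1 and 2, 40.4 and 39.2 TPM with TCP, 55.4 and 65.8 TPM with palbociclib and 80.6 and 84.3 TPM with the combination, and all 4 libraries with palbociclib exceeded the other 4. IFNAR1 had 0.63 (SE 0.10, adjusted p = 0.0024) with palbociclib and was a DEG with 1.07 (SE 0.10, adjusted p = 0.000191) with the combination. IFNAR2 had 0.66 (SE 0.07, adjusted p = 0.000587) with palbociclib and was a DEG with 1.004 (SE 0.07, adjusted p = 7.83e-05) with the combination. The interferon gamma receptor chain IFNGR1 had 0.53 (SE 0.08, adjusted p = 0.00195) and 0.83 (SE 0.08, adjusted p = 0.000225). Of the 5 receptor genes tested, 4 rose with palbociclib and 5 with the combination at an adjusted p below 0.05, against 14.8% and 15.9% of all tested genes. IFNLR1, the chain specific for lambda interferons, was at or near 0 in all libraries. Of the kinases and factors that carry the signal from these receptors, JAK1, JAK2, TYK2 and STAT3 did not pass the test against control.

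Of 16 tested nucleic acid sensing genes, 4 rose and 3 fell with palbociclib and 6 rose and 3 fell with the combination, at an adjusted p below 0.05. Of all tested genes 14.8% rose and 30.2% fell with palbociclib, and 15.9% rose and 37.6% fell with the combination. IFI16, a nuclear DNA sensor and interferon target, was at 104 and 62.1 TPM in control replicates 1 and 2, 144 and 67.8 TPM with TCP, 19.3 and 21.4 TPM with palbociclib and 66.0 and 64.9 TPM with the combination. It was low only in the palbociclib libraries, and it was a DEG with -1.93 (SE 0.36, adjusted p = 0.00486) with palbociclib, against -0.29 (SE 0.36, adjusted p = 0.519) with the combination. TLR8, an endosomal receptor of single-stranded RNA on monocytes, was at 0.670 and 0.945 TPM in control replicates 1 and 2, 1.15 and 1.67 TPM with TCP, 10.5 and 14.7 TPM with palbociclib and 57.9 and 59.8 TPM with the combination, a DEG higher in both comparisons. IRF5, a factor downstream of such receptors, had 0.93 (SE 0.08, adjusted p = 0.000337) with palbociclib and was a DEG with 1.53 (SE 0.08, adjusted p = 3.59e-05) with the combination. TMEM173, which encodes STING, fell by 0.52 on the log2 scale with palbociclib (adjusted p = 0.00194).

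Of 11 genes of nucleic acid disposal, 3 rose and 4 fell with palbociclib at an adjusted p below 0.05, against 14.8% and 30.2% of all tested genes. With the combination 2 rose and 3 fell, against 15.9% and 37.6%. SAMHD1, a deoxynucleotide hydrolase, rose by 1.31 (SE 0.13, adjusted p = 0.000516) with palbociclib and 1.94 (SE 0.13, adjusted p = 7.18e-05) with the combination. RNASEH2A, a subunit of ribonuclease H2, had -0.99 (SE 0.16, adjusted p = 0.00291) and -1.29 (SE 0.16, adjusted p = 0.000662). RNASEH2B had -1.22 (SE 0.13, adjusted p = 0.00035) with the combination. Of 12 negative regulators, 5 rose and 3 fell with palbociclib at an adjusted p below 0.05, against 14.8% and 30.2% of all tested genes. SOCS3, an inhibitor of cytokine receptor signaling, was a DEG with 1.26 (SE 0.14, adjusted p = 0.000659) with palbociclib and 1.44 (SE 0.14, adjusted p = 0.000243) with the combination, and SOCS1 did not pass the test.

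Of 13 tested targets that lean towards interferon gamma, 3 rose and 6 fell with palbociclib, and 3 rose and 4 fell with the combination, at an adjusted p below 0.05, beside the same shares of all tested genes (30.2% and 37.6% lower). CXCL10, a chemokine for T cells that type I interferon also induces, was at 33.5 and 28.7 TPM in control replicates 1 and 2, 42.9 and 13.2 TPM with TCP, 3.13 and 2.85 TPM with palbociclib and 4.20 and 4.82 TPM with the combination. All libraries with palbociclib were below all others. CXCL10 was a DEG with -3.01 (SE 0.45, adjusted p = 0.00218) with palbociclib and -2.54 (SE 0.45, adjusted p = 0.00321) with the combination. APOL6 was also a DEG lower with palbociclib, with -1.55 (SE 0.32, adjusted p = 0.00794), and NLRC5, an activator of MHC class I genes, was a DEG higher, with 1.03 (SE 0.10, adjusted p = 0.000398).

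**Figure D5:**
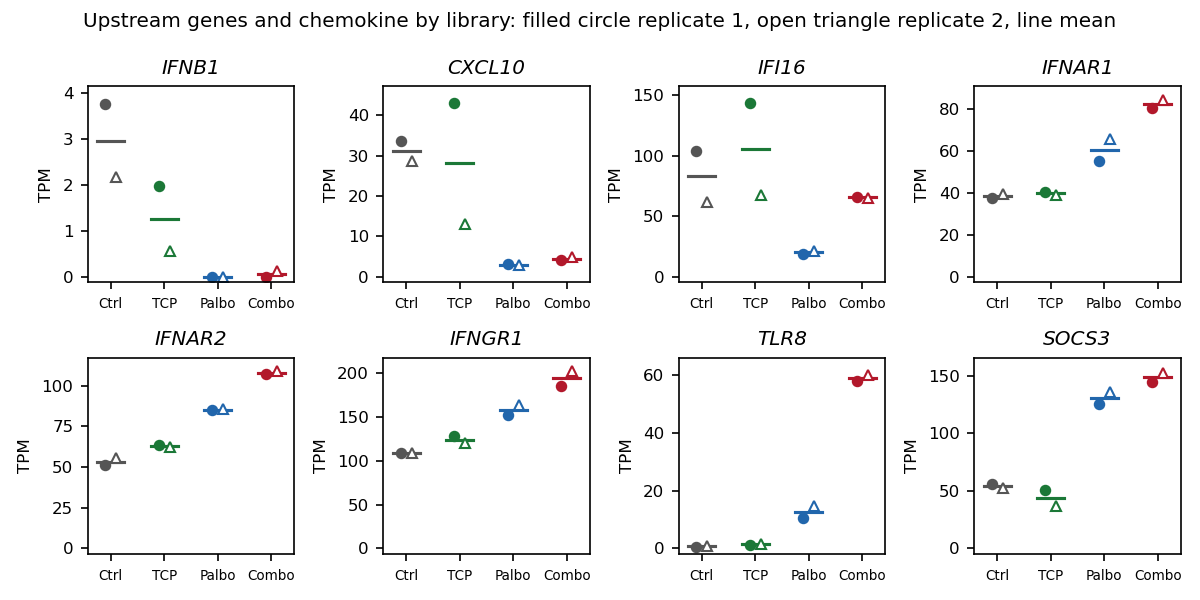
TPM of 8 genes outside the 47 members in each library, in the same layout of groups, circles, triangles and mean lines as the plot of member levels, with axes that start just below 0. IFNB1 and CXCL10 are low in all libraries with palbociclib, IFI16 is low with palbociclib alone, and IFNAR1, IFNAR2, IFNGR1, TLR8 and SOCS3 are highest with the combination.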

How the data were processed

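Libraries were made from total RNA of MV4-11 cells with a stranded mRNA kit, per the labels. The authors mapped reads to hg19 (GRCh37) with subread-align and counted them per gene with featureCounts 1.6.4, and the deposited values are TPM computed by the authors, 1 column per library. The gene annotation, gene lengths and strand setting of the counting are not given in the sources used here, so overlapping genes may have exchanged reads. TPM keep no depth, so no counting interval is given, and an abundant gene that takes a larger share lowers all other values.

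The main test was limma 3.58.1 (R 4.3.3) on log2(TPM + 1) with 1 coefficient per group over 8 libraries, a mean-variance trend and 4 residual degrees of freedom, for the 14151 genes that reached 1 TPM in 2 or more libraries, and p-values were adjusted over all of them. The fit was checked on simulated data. The thresholds of DEG are the study's, whose count test could not be run on TPM. The groups share replicate numbers 1 and 2, and across all tested genes the deviations of same-numbered libraries correlated at 0.169 to 0.491 for all 6 pairs of groups, so the numbers were treated as pairing libraries, from these values alone. The replicate block takes 1 replicate effect as common to all groups. Among the 47 members the correlations between groups without and with palbociclib were -0.508 to -0.172. A common effect therefore does not describe the members, and their calls with the replicate block carry that limit.

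The members and lists were chosen with earlier results of these data known. Members given with every value are those called DEG, the 5 highest and 5 lowest log2 changes with palbociclib and with the combination and the 3 of each with TCP (among members whose higher group averaged 5 TPM or more), and 7 regulators. Other genes named with values for their role, such as ISG15 and GBP1, were chosen after their values were seen. A gene of the pathway lists is not reported here. Gene coordinates are from a GRCh37 annotation, which need not be that of the authors, and promoters are from RefSeq on GRCh38.p14. Alternatives were a pseudocount of 0.1, no filter, a mean of 5 TPM or more, quantile normalization, median-ratio scaling, the replicate block, only the groups compared, no trend, other thresholds and each library left out.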

Additional observations from a re-analysis of the deposited data

Results flagged for a closer look

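In 31 of 47 members, the change with TCP had opposite signs without and with palbociclib: TCP was below control in both same-numbered pairs, and the combination was above palbociclib in both. Of all tested genes, 5.23% met the same condition. The difference was not tested by this count, and the interaction term of limma called none of the 47 (1 at an unadjusted p below 0.05). Its median over the members was 0.80, 0.08 without TCP replicate 2 and 1.51 without TCP replicate 1. The groups of 2 libraries are too small for a test of single outlying samples.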

How the results depend on the processing

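Under every alternative run, no named member with a call in a comparison reversed its direction. Of the 47 members, 1 was a DEG with palbociclib against control, against 9.1% of all tested genes. The share of all tested genes is given in brackets for the alternatives. The count became 3 with a mean of at least 5 TPM (9.56%), 0 with quantile normalization (8.65%) and 0 with median-ratio scaling (8.7%). It was 5 with the replicate block (9.79%) and 4 with only the groups compared (8.42%). At an adjusted p below 0.05 with no fold minimum it was 12, with 10 lower and 2 higher, against 30.2% and 14.8%. At that p with the fold minimum it was 10, with no share of all genes given. Leaving out a library leaves 1 library in a group, so counts of called members are not given for those fits. Without a TCP replicate, the wide TCP gap also drops out of the shared spread, and the lone TCP library is assumed to vary like the other groups. For the combination against control, 2 (13.7% of all tested genes) became 1 without the filter (5.32%), 4 with the replicate block (14.4%) and 7 with only the groups compared (13.7%). At an adjusted p below 0.05 it was 9, with 5 lower and 4 higher, against 37.6% and 15.9%. With the fold minimum as well it was 8, with no share of all genes given. For the combination against TCP, 2 (12.2% of all tested genes) became 1 without the filter (4.51%), 1 with quantile normalization (11.2%) and 1 with median-ratio scaling (11.3%). At an adjusted p below 0.05 it was 4, with 1 lower and 3 higher, against 33.8% and 16.5%. No DEG was called under any alternative for TCP against control, the combination against palbociclib or the interaction. With a library left out, the median log2 change of the members ran from -1.11 to 0.23 for TCP against control, -1.35 to -0.68 for palbociclib, -1.04 to -0.30 for the combination, 0.17 to 0.58 for the combination against palbociclib, -0.93 to 0.58 for the combination against TCP and 0.08 to 1.51 for the interaction. Scaling shifted the background: with median-ratio scaling 20% of all tested genes fell and 20.2% rose with palbociclib at an adjusted p below 0.05 (30.2% and 14.8% as deposited), and 8 members fell and 2 rose. With the replicate block IFIT2 was a DEG with palbociclib (adjusted p = 0.00225) and with the combination (0.00331), although the replicate effect of the members was not common to all groups. The stricter motif with 1 more A was in 57.4% of member promoters and 3.57% of all. Read depth cannot be recovered from TPM.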
